A study of Homo sapiens with 6 samples.

Results

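The comparison set 4 libraries of DDX18 knockdown cells against 2 libraries of control cells, all from MDA-MB-231, a human triple negative breast cancer cell line of mesenchymal character. The knockdown cells were 2 colonies, and each colony and the control were sequenced as 2 replicates, so that all 6 libraries of the series entered and the 2 colonies were given equal weight. The labels name only knockdown of DDX18 or control as the genotype, and call the knockdown cells colonies without saying whether each grew from 1 cell. The sources used here do not give how DDX18 was knocked down, what the control cells carry or whether replicates were separate cultures. The p-values therefore measure only the spread between the 2 replicate libraries within each group, and leave out the spread between the colonies. The stated purpose was to examine the transcriptome after DDX18 knockdown. Genes with a symbol of their own and a mean level of 1 CPM or more (reads of a gene scaled by the authors to the size of the library) were compared, which left 13675 of 36932 genes.

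DDX18 is a nucleolar DEAD-box RNA helicase that takes part in assembling the large ribosomal subunit. Making ribosomes takes a large part of the synthesis of a dividing cell and is tied to its growth and division. MDA-MB-231 is known for low E-cadherin and a migratory, mesenchymal state. The gene families described here cover cell junctions, the cytoskeleton, membrane traffic, signalling, transport, metabolism, gene control and RNA decay. Genes of the cell cycle and sterol synthesis enter only where the ranking of single genes or the scan by symbol root took them.

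From the smallest value step of each library, the CPM correspond to 8843847 to 11902437 reads per library if 1 step is 1 read, which was not settled since a step lay close to a round decimal, and every value was a whole multiple of that step within a relative tolerance of 1e-06. The median log2 level over the tested genes was 4.87 and 4.88 in the control libraries and 4.91 to 4.93 in the knockdown libraries. The markers of the line were present: the 8 identity genes, which include VIM, CD44 and AXL, summed to 5691 and 5713 CPM in control and 6453 to 6684 in knockdown. ESR1 was at most 0.201 CPM and PGR was listed at 0 in all 6 libraries, while ERBB2 ranged from 102 to 134 CPM. Summed luminal markers were 1972 and 2047 CPM in control against 1255 to 1370 in knockdown, most of it from KRT8, KRT18 and KRT19, with FOXA1 at most 0.306 CPM. Summed fibroblast markers were 50.7 and 56.1 CPM in control against 24.97 to 32.7 in knockdown, nearly all from COL1A1 and LUM, which fell (log2 changes -1.38 and -1.68), and PDGFRB, which rose (0.40), with DCN and PDGFRA at or near 0. Leukocyte markers summed to 5.73 to 8.65 CPM over all libraries and endothelial markers to at most 0.409.

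DDX18, at chr2:117814650-117832379 on the plus strand of hg38, was measured at 78.8 and 91.7 CPM in the control libraries, at 17.6 and 14.0 in those of colony 1 and at 14.7 and 15.1 in those of colony 2. All 4 knockdown libraries lay below both controls, a 5.55-fold lower mean level. The log2 change was -2.40 (SE 0.11, limma adjusted p = 3.9e-15).

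Across the transcriptome, log2(CPM + 1) was compared by limma's moderated test with Benjamini-Hochberg adjustment over all 13675 genes, a scale that understates the change of low genes. An adjusted p of 0.05 was passed by 6115 genes, or 44.7% of those tested, with 3171 higher in knockdown (23.2%) and 2944 lower (21.5%). With an absolute log2 change of at least 0.5 as well, 2672 genes remained (19.5%), 1374 higher (10%) and 1298 lower (9.49%), and 438 called genes changed by at least 1. The knockdown and control libraries did not overlap for 7329 genes (53.6%), 3799 above (27.8%) and 3530 below (25.8%). Of the 6115 called genes, 27 had colony changes of opposite sign and 4179 were also called in each colony alone. Both colonies were set against the same 2 controls and the call uses their mean, so these counts are a description and no evidence that the changes are shared. The direct test of colony 2 against colony 1 called 312 genes (2.28%), 165 of them among the 6115. The median log2 change over all tested genes was 0.01, and every list count below is to be read against the shares of 23.2% and 21.5%. A difference in RNA level can come from fewer cells of a kind or from less RNA per cell, and bulk libraries cannot tell these apart.

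The share of genes called depended on the level. At a mean of 1 to 3 CPM, 278 of 1537 genes were called (18.1%), and above 100 CPM the share was 60.7% of 2300. At 3 to 10 CPM the share was 30.5%, at 10 to 30 CPM 43.4% and at 30 to 100 CPM 53.3%. Among the low genes at 1 to 3 CPM, 100 rose and 178 fell, whereas at 30 to 100 CPM 1317 rose and 1049 fell. A list of low genes therefore has fewer calls to give than one of abundant genes.

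Beyond the genes at the very top of the ranking, those ranked 11 to 25 by rise included genes of lipid supply, signalling and protein turnover. ACSL1, which activates long-chain fatty acids, rose from 11.95 and 11.3 CPM in control to between 33.3 and 41.5 in knockdown (log2 change 1.59), with an SE of 0.11 on the log2 scale and an adjusted p of 1.0e-11. GPAT3, which adds the first acyl chain in glycerolipid synthesis, stood at 36.8 and 38.5 CPM in the control libraries, at 108 and 112 in those of colony 1 and at 99.7 and 103 in those of colony 2. MBTPS2, the site-2 protease that releases membrane-bound transcription factors, rose (log2 change 1.55). All 4 knockdown libraries lay above both controls in each, as the ranking required. RMND5A, a subunit of the CTLH ubiquitin ligase, went from 16.1 and 22.9 CPM in control to between 57.2 and 62.2 in knockdown (log2 change 1.58). SLC35B2, which carries the sulfate donor PAPS into the Golgi, went from 54.8 and 47.4 CPM in control to between 136 and 144 in knockdown (log2 change 1.43). SDCBP, the PDZ scaffold syntenin that sorts cargo into exosomes, went from 56.2 and 59.7 CPM in control to between 151 and 161 in knockdown (log2 change 1.41). The scaffold gene GSKIP, the CDC42 effector CDC42SE2, the RNA-binding protein gene RBM47 and the reticulum membrane protein gene TMEM33 rose (log2 changes 1.55, 1.51, 1.49 and 1.48). CEP20, a centrosomal protein gene, and MAK16, whose yeast counterpart assembles the large ribosomal subunit, rose (log2 changes 1.45 and 1.44). DESI2, an isopeptidase gene, rose (log2 change 1.55), and the long noncoding RNA MANCR (log2 change 1.41).

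The genes ranked 11 to 25 by fall held cell surface proteins, glycan enzymes and lipid sensors. ARHGAP1, which switches off CDC42 and RHOA, was measured at 95.01 and 85.7 CPM in the control libraries, at 34.6 and 26.4 in those of colony 1 and at 28.6 and 26.7 in those of colony 2, a log2 change of -1.61 (SE 0.10, adjusted p = 1.7e-12). B4GALT1, which adds galactose to N-glycans, went from 336 and 311 CPM in control to between 103 and 122.8 in knockdown (log2 change -1.51). ATP2B4, a plasma membrane calcium pump, went from 391 and 344 CPM in control to between 119 and 158 in knockdown (log2 change -1.45). In all 3 both controls lay above every knockdown library, as the ranking required. ADIPOR2, an adiponectin receptor, went from 103 and 107 CPM in control to between 36.7 and 40.2 in knockdown (log2 change -1.41), while SERINC3, a lipid scramblase of the plasma membrane, went from 393 and 424 CPM in control to between 146 and 163 in knockdown (log2 change -1.39). TMEM14C, a mitochondrial protein needed for haem synthesis, went from 193 and 186 CPM in control to between 66.8 and 78.03 in knockdown (log2 change -1.39). The others were the membrane mucin MUC4 (log2 change -1.41), the integrin subunit ITGB2 (log2 change -1.46), the RNA-binding protein CELF2 (log2 change -1.49), the glycerophosphodiesterase GDPD5 (log2 change -1.41), the phosphatase scaffold STRN3 (log2 change -1.40), the collagen chain COL1A1 (log2 change -1.38), the mesenchymal cadherin CDH11 (log2 change -1.37) and the sterol genes INSIG1 (log2 change -1.49) and HMGCS1 (log2 change -1.44). ITGB2 overlaps the antisense gene ITGB2-AS1, which also fell (log2 change -1.05), and the sources used here do not give the strand setting of the counting.

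**Figure D1:**
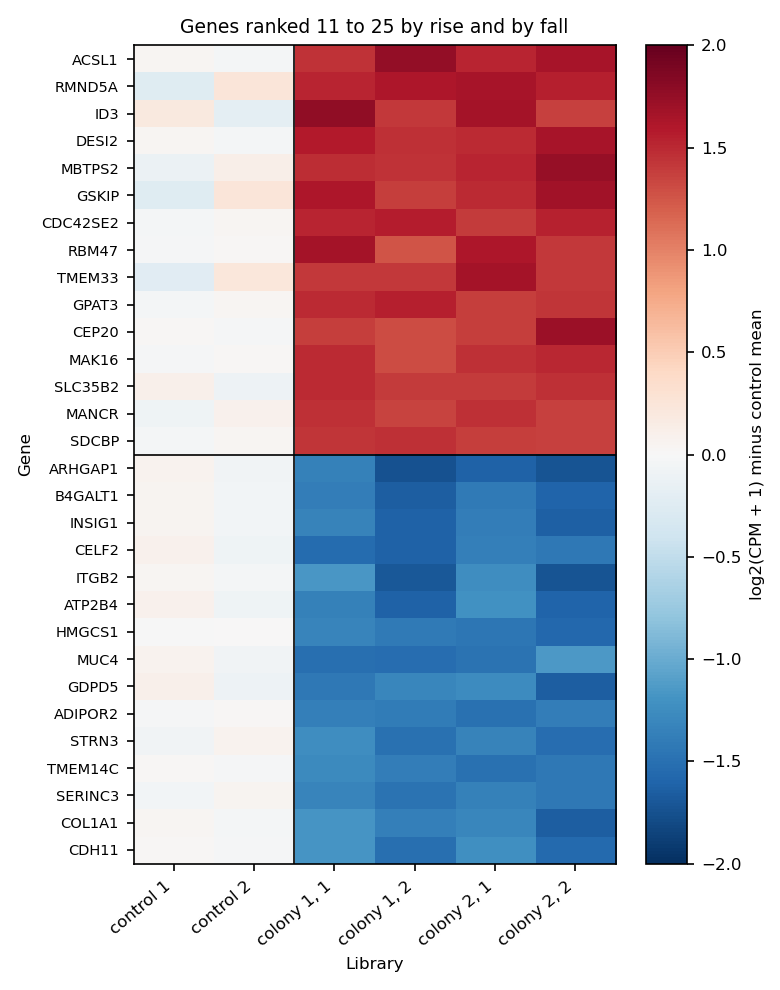
Log2(CPM + 1) minus the control mean for the genes ranked 11 to 25 by rise (upper 15 rows) and by fall (lower 15 rows), 1 column per library. Within each block the 4 knockdown columns share a direction, from a log2 change of 1.59 for ACSL1 down to 1.41 for SDCBP in the upper block and from -1.61 for ARHGAP1 to -1.37 for CDH11 in the lower.

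Ranked by the CPM gained instead, which favours abundant and long transcripts since CPM are not divided by length, the genes included binders of membranes and actin. ANXA2, an annexin that links membranes to actin, was measured at 747 and 743 CPM in the control libraries, at 1659.9 and 1645 in those of colony 1 and at 1433 and 1387 in those of colony 2. TPM4, a tropomyosin that stabilises actin filaments, was measured at 326 and 339 CPM in the control libraries, at 841 and 846 in those of colony 1 and at 769 and 799 in those of colony 2, and PTMA, the small nuclear protein prothymosin alpha, at 291 and 331 CPM in the control libraries, at 741 and 754 in those of colony 1 and at 739 and 755 in those of colony 2. In all 3 every knockdown library was above both controls, as this ranking required, and for ANXA2 colony 2 was lower than colony 1. The hyaluronan receptor CD44 rose from 602 and 584 CPM in control to between 939 and 1049.5 in knockdown (log2 change 0.74), and the chromatin protein HMGA1 from 819 and 806 CPM in control to between 1149 and 1318 in knockdown (log2 change 0.60). The actin monomer binder TMSB4X rose (log2 change 0.29) and the mitochondrial transcripts MT-CO1, MT-CO3 and MT-ND2 (log2 changes 0.19, 0.27 and 0.28). ANXA2, PTMA and TMSB4X have near-identical pseudogene copies in the genome, so that their counts depend on how shared reads were assigned.

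The largest CPM losses included cytolinker, chaperone and glycolytic genes. PTPRF, a receptor tyrosine phosphatase of cell contacts, was measured at 918 and 867 CPM in the control libraries, at 415 and 446 in those of colony 1 and at 444 and 423 in those of colony 2. CALR, the reticulum chaperone calreticulin, fell from 1507 and 1447 CPM in control to between 710.2 and 886 in knockdown (log2 change -0.88), and the nuclear noncoding RNA NEAT1 from 1699 and 1522 CPM in control to between 829 and 1152 in knockdown (log2 change -0.67). The colonies differed for NEAT1, with colony 1 below colony 2. The giant scaffold AHNAK and the cytolinker PLEC fell (log2 changes -0.51 and -0.47). The glycolytic enzyme genes LDHA, PKM and ENO1 had log2 changes of -0.62, -0.28 and -0.23, the elongation factor EEF1A1 -0.17 and the mitochondrial ribosomal RNA MT-RNR2 -0.38. With the 4 knockdown libraries fitted as 1 group, EEF1A1 lost its call (adjusted p = 0.0666).

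Among 79 gene lists, the lists with the most uneven calls are shown in the plot of shares by list. In 38 lists more genes rose than fell and in 36 more fell than rose. Within each list up to 2 genes are named in each direction, those with the largest change among the called genes whose 4 knockdown libraries lay beyond both controls, and any further gene was chosen after its values were seen. The CPM given for a gene are the 2 control libraries and the lowest and highest of the 4 knockdown libraries.

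**Figure D2:**
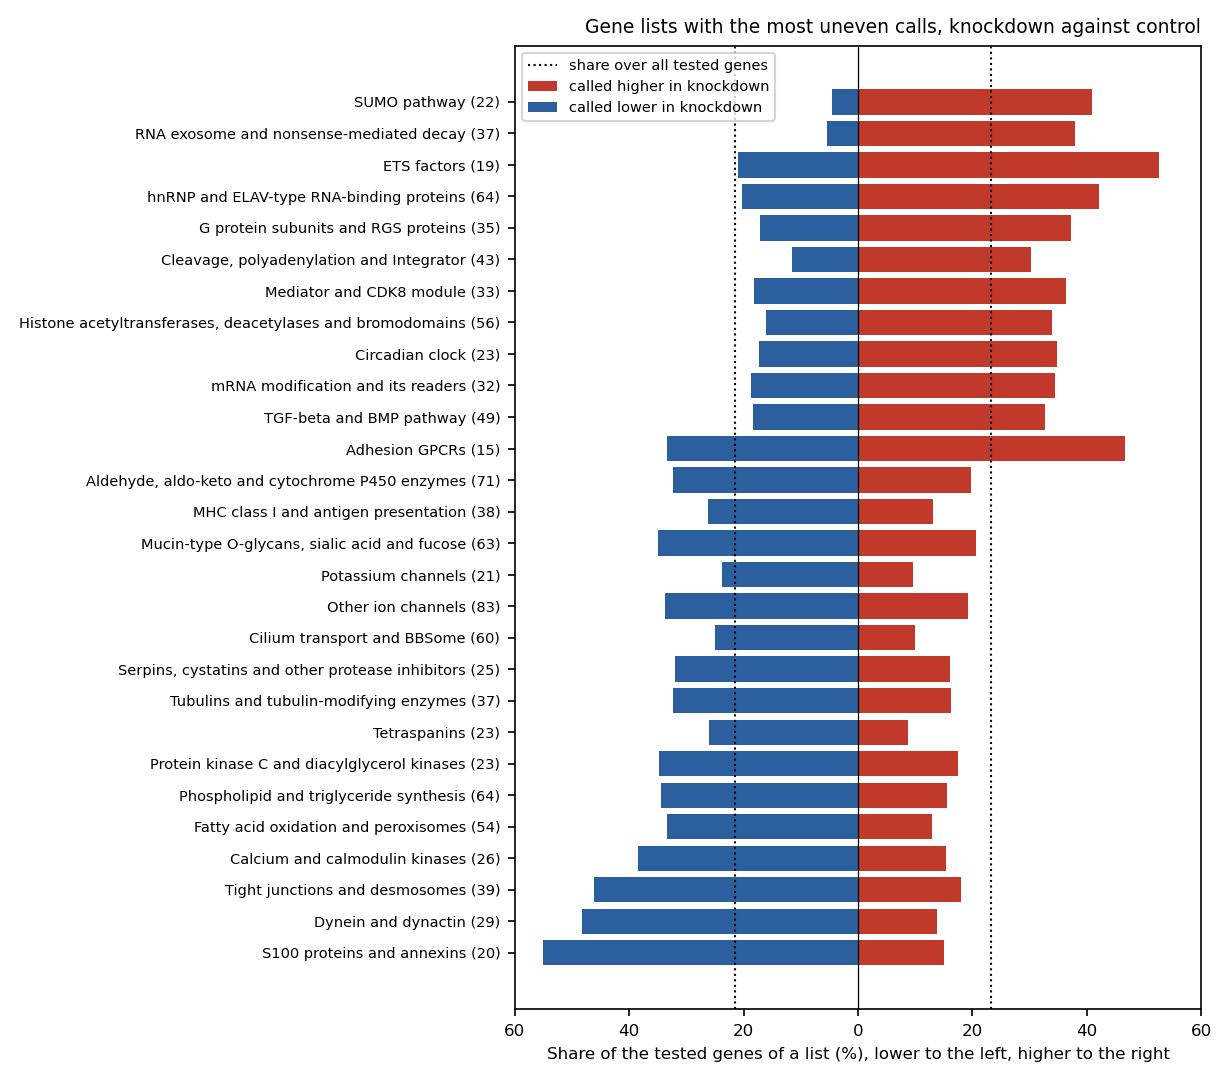
Share of the tested genes of a list that were called higher (right, red) and lower (left, blue) in knockdown, for the 28 lists with the largest difference between both shares among 72 of the lists with at least 15 tested genes. The number of tested genes is in parentheses. The dotted lines mark the shares over all 13675 genes, 23.2% higher and 21.5% lower. The SUMO and RNA exosome lists lie at the top and the annexin and dynein lists at the bottom, and the balance of the mRNA modification list turned after median centring, which left the adhesion GPCR list even (5 higher and 5 lower).

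Genes of tight junctions, cell polarity and desmosomes, the contacts that seal and anchor epithelial cells, were lower in knockdown in a larger share than all genes: 18 of 39 tested fell (46.2%, against 21.5% of all genes) and 7 rose, with a median log2 change of -0.19, and 15 of the falls were past -0.5. CGN, the tight junction scaffold cingulin at chr1:151510510-151538692, was measured at 8.79 and 12.4 CPM in the control libraries, at 0.603 and 1.82 in those of colony 1 and at 1.71 and 2.59 in those of colony 2. Every knockdown library was far below both controls, and the log2 change was -2.15 (SE 0.23, adjusted p = 4.7e-08). F11R, the junctional adhesion molecule A, fell from 27.6 and 22.8 CPM in control to between 8.88 and 11.0 in knockdown (log2 change -1.23). Occludin, the strand protein encoded by OCLN, fell from 7.66 and 10.2 CPM in control to between 3.12 and 4.48 in knockdown (log2 change -1.06). The polarity adaptor PARD6B fell from 21.7 and 23.7 CPM in control to between 9.80 and 13.5 in knockdown (log2 change -0.94), and none of these 4 genes had overlapping groups. Desmosomal genes fell too. PPL, encoding periplakin, fell from 128 and 119 to between 56.5 and 62.8 CPM and JUP, encoding plakoglobin, from 111 and 90.4 to between 45.4 and 56.3 CPM. The abundant DSG2 and DSP, encoding desmoglein 2 and desmoplakin, fell less, from 225 and 221 to between 142 and 154 CPM and from 292 and 300.4 to between 193 and 215 CPM. The rises were of other members: the junctional molecule JAM3 (1.23 and 0.701 against 2.41 to 3.24 CPM), the polarity adaptor PARD6A (2.35 and 2.20 against 3.46 to 5.87 CPM), the strand protein CLDN3 (1.02 and 1.20 against 2.01 to 2.53 CPM) and, to a smaller extent, the angiomotin relative AMOTL1 (log2 change 0.46) and the polarity scaffold PARD3 (log2 change 0.29). TJP1, the scaffold ZO-1, fell (log2 change -0.23). The claudin strand proteins had few calls: the symbol root CLDN had 1 rise and 2 falls of 11 tested (median log2 change 0.05). Their median control level was 5.15 CPM, and only 30.5% of genes at 3 to 10 CPM were called. Of the luminal markers, KRT8, KRT18 and KRT19 fell too (log2 changes -0.65, -0.51 and -0.64), CDH1 rose (0.69), EPCAM and GATA3 did not pass the test (log2 changes -0.22 and -0.04), and ESR1, PGR and FOXA1 were at or near 0. Their part in the result was not tested.

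**Figure D3:**
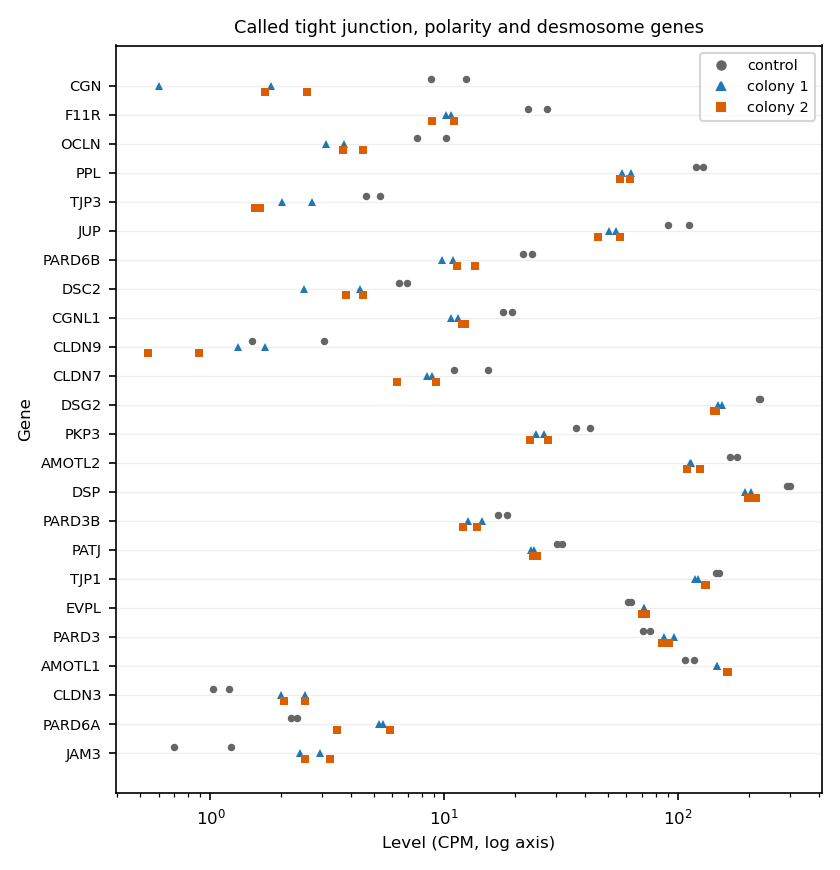
Level in CPM (log axis) of 24 of the 25 called tight junction, polarity and desmosome genes in each library, with control as circles, colony 1 as triangles and colony 2 as squares, ordered from the largest fall to the largest rise. The 18 genes at the top, from CGN, have their knockdown symbols to the left of control, except 1 library of CLDN9, and the 6 at the bottom, ending with JAM3, to the right.

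Single genes known from epithelial cells, named from several lists and not tested as a group, went both ways. RAB17, a GTPase of epithelial endosomes, was measured at 18.1 and 12.7 CPM in the control libraries, at 4.83 and 3.03 in those of colony 1 and at 4.73 and 2.27 in those of colony 2, a log2 change of -1.82 (adjusted p = 4.9e-07). AP1M2, the clathrin adaptor subunit that epithelial cells use for basolateral sorting, fell from 40.9 and 35.8 CPM in control to between 15.2 and 17.1 in knockdown (log2 change -1.18). In both genes every knockdown library was less than 0.5 times the lower control library. ELF3, an ETS factor of epithelial cells, fell from 5.82 and 5.71 CPM in control to between 1.91 and 3.03 in knockdown (log2 change -1.01), while EHF, another ETS factor of epithelia, rose from 63.1 and 67.7 to between 89.1 and 106 CPM (log2 change 0.55). TRIM29, a TRIM protein of epithelia, fell from 17.98 and 19.5 CPM in control to between 5.86 and 6.84 in knockdown (log2 change -1.44), and the zinc finger factor SP6 from 17.9 and 16.3 CPM in control to between 5.66 and 7.64 in knockdown (log2 change -1.26). Among genes chosen after their values were seen, the splicing regulator ESRP2 (log2 change -1.02), the serine protease ST14 (log2 change -1.21) and its inhibitor SPINT2 (log2 change -0.68) fell. CDH1, encoding E-cadherin, rose from 2.15 and 1.501 CPM in control to between 3.03 and 4.22 in knockdown (log2 change 0.69). ZEB1, a repressor of epithelial genes including CDH1, rose from 63.5 and 62.8 CPM in control to between 84.3 and 89.5 in knockdown (log2 change 0.45). ZEB2, SNAI1 and SNAI2 did not pass the test, with log2 changes of -0.21, 0.15 and -0.03.

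The promoter of RAB17 is shown because ZEB and SNAI repressors and the E proteins described further on all recognise the E-box CACCTG. The window runs from 250 bases before to 50 after the gene start in RefSeq (GRCh38.p14, chr2:237590685-237590984, minus strand), and capitals mark the 3 matches to CACCTG on either strand.
RAB17 promoter: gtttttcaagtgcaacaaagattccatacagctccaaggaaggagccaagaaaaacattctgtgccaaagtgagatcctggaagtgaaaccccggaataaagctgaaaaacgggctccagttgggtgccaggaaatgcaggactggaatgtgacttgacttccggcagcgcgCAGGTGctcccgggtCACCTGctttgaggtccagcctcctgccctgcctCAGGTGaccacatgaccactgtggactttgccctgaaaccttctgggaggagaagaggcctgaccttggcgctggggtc
Windows were found for 10606 of the tested genes, and 18.7% of 15435 windows held CACCTG on either strand. The share was 16.03% of 3731 windows of the genes called higher and 20.2% of 3476 windows of those called lower. For the called tight junction and desmosome genes, 11 of 22 windows held it among those that fell and 2 of 3 among those that rose. The 22 windows belong to 13 of the 18 genes that fell, and the 3 windows to 3 of the 7 that rose. Windows of the same gene are not independent, and the shares were not tested. A match is a description of the letters and not of binding.

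Actin and microtubule genes moved by subgroup. Of the dynein and dynactin genes, which drive cargo toward microtubule minus ends, 4 rose and 14 fell of 29 tested, with a median log2 change of -0.16. DCTN1, the dynactin backbone, fell from 217 and 205 to between 157 and 164 CPM, and the largest falls were in the ciliary dynein 2 genes DYNC2LI1 (log2 change -0.61) and DYNC2H1 (log2 change -0.50). The light chain DYNLT3 rose from 30.0 and 32.4 CPM in control to between 57.6 and 66.0 in knockdown (log2 change 0.94) and the regulator NDE1 from 33.4 and 34.3 CPM in control to between 54.9 and 62.5 in knockdown (log2 change 0.75). For tubulins and their modifying enzymes, 6 rose and 12 fell of 37 tested, with a median log2 change of -0.14. TUBA1A, an alpha-tubulin whose coding sequence is close to that of other alpha-tubulins, fell from 258 and 227 CPM in control to between 100.2 and 137 in knockdown (log2 change -1.05). TTL, which puts tyrosine back on the alpha-tubulin tail, was measured at 44.4 and 45.0 CPM in the control libraries, at 114 and 122 in those of colony 1 and at 112 and 127 in those of colony 2. The groups of TTL were far apart, and neither colony stood out.

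Myosins and their regulators showed 11 rises, led by TPM4 and the phosphatase subunit PPP1R12A (log2 change 0.63), and 15 falls, led by MYO7A (log2 change -0.86) and MYO18A (log2 change -0.68), of 45. Septins, filament proteins of the cell cortex, had 3 rises, 1 fall and a median of 0.20 over 11 genes, with SEPTIN11 at 176 and 174 against 249 to 273 CPM and SEPTIN2 at 306 and 318 against 420.3 to 461 CPM among the rises and SEPTIN6 (log2 change -0.28) as the fall.

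S100 proteins and annexins, which bind calcium at membranes, had the largest share of falls among lists of 15 or more genes. Of 20, 11 fell (55%, against 21.5% of all genes) and 3 rose (median -0.18). Their median control level was 247 CPM, and 29.9% of all genes above 100 CPM fell. ANXA9 fell from 10.1 and 11.5 CPM in control to between 3.94 and 7.04 in knockdown (log2 change -0.90) and ANXA10 from 7.97 and 5.91 to between 3.33 and 4.22 CPM, and the abundant ANXA1 and ANXA6 fell (log2 changes -0.37 and -0.49). ANXA2 and its partner S100A10 rose together against these, S100A10 from 247 and 265 CPM in control to between 282 and 359 in knockdown (log2 change 0.33). S100A1 rose from 3.68 and 3.40 to between 4.63 and 6.03 CPM, a call that was lost with the knockdown libraries as 1 group (adjusted p = 0.0543). Tetraspanins, which organise membrane patches, showed 2 rises and 6 falls of 23. CD82 was measured at 64.3 and 58.7 CPM in the control libraries, at 160.3 and 166 in those of colony 1 and at 157 and 165 in those of colony 2, more than doubled in every knockdown library, while CD9 and CD81 fell (log2 changes -0.72 and -0.70).

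In membrane traffic, genes of fusion proteins fell somewhat more than they rose. Of the SNARE genes and their helpers, 11 rose and 16 fell of 49 tested, with a median log2 change of -0.12, and 10 falls and 4 rises were past 0.5 in size. BET1, of reticulum to Golgi fusion, was measured at 37.7 and 39.6 CPM in the control libraries, at 17.4 and 17.2 in those of colony 1 and at 17.4 and 16.6 in those of colony 2, and the endosomal STX7 fell from 67.6 and 73.5 CPM in control to between 39.3 and 44.5 in knockdown (log2 change -0.72). The plasma membrane syntaxins STX1A and STX2 rose from 31.1 and 32.0 to between 57.2 and 63.3 CPM and from 25.6 and 26.2 to between 42.5 and 49.3 CPM. Among Rab GTPases 7 rose and 10 fell of 53, or 32.1% called, below the 44.7% over all genes. The Golgi RAB6A rose from 70.6 and 63.9 CPM in control to between 159 and 171 in knockdown (log2 change 1.28) and RAB23, a regulator of hedgehog signalling, from 15.7 and 17.3 CPM in control to between 38.1 and 41.2 in knockdown (log2 change 1.23), and RAB40B fell (log2 change -0.94). RAB6A has close paralogs and its reads may be shared.

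The remaining traffic lists held single large members and, apart from clathrin and adaptor genes, were near the background. Clathrin and adaptor genes had 14 rises and 18 falls (32.1%, against 21.5% of all genes) of 56, and 11 and 20 after median centring. The adaptor subunits AP1S2 (log2 change 1.17) and AP3M2 (log2 change 0.71) rose, and the endocytic FCHO1 (log2 change -0.97) fell beside AP1M2. ESCRT genes, which pinch membranes off the cytosol, had 9 and 8 of 32, 7 and 9 after median centring. Among them MVB12B (log2 change 1.26) and the ATPase VPS4B (log2 change 0.99) rose and CHMP4C (log2 change -0.51) and CHMP1B (log2 change -0.42) fell. Retromer genes and sorting nexins, which recycle cargo from endosomes, had 9 and 11 of 50. SNX29 fell from 30.4 and 23.6 CPM in control to between 8.65 and 11.7 in knockdown (log2 change -1.31), as did SNX4 (log2 change -0.67), and SNX17 and COMMD4 rose (log2 changes 0.58 and 0.54). Exocyst and other tethering genes had 10 and 13 of 50. Among them TRAPPC13 (log2 change 0.82) and VPS54 (log2 change 0.57) rose and GCC2 (log2 change -0.67) and EXOC4 (log2 change -0.62) fell.

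The TGF-beta and BMP list held more rises than falls, 16 and 9 of 49 with a median of 0.12, and 14 and 10 after median centring. Among the receptors, TGFBR1, the signalling kinase for TGF-beta, rose from 77.9 and 73.5 CPM in control to between 154 and 193 in knockdown (log2 change 1.19), and its partner TGFBR2 from 206 and 189 CPM in control to between 364 and 384 in knockdown (log2 change 0.91). The BMP receptor BMPR2 rose from 73.8 and 70.3 CPM in control to between 146 and 189 in knockdown (log2 change 1.19). The co-receptor TGFBR3 fell from 62.8 and 65.2 CPM in control to between 25.5 and 28.4 in knockdown (log2 change -1.20), and BMPR1A fell (log2 change -0.28). Of the called ligand genes 4 fell and 2 rose. INHBA, the activin A subunit, was measured at 11.9 and 13.3 CPM in the control libraries, at 4.22 and 3.13 in those of colony 1 and at 2.85 and 2.70 in those of colony 2, so that the groups did not overlap. The ligands TGFB2, TGFB3 and BMP8B fell (log2 changes -0.46, -0.63 and -0.43), and TGFB1 (log2 change 0.25) and GDF11 (log2 change 0.65) rose. The activin binder FSTL3 fell (log2 change -0.69). All 4 ID genes, targets of BMP signalling whose proteins block E-box factors, rose. ID3 was measured at 43.6 and 33.0 CPM in the control libraries, at 132 and 103 in those of colony 1 and at 122 and 99.2 in those of colony 2, and ID1, ID2 and ID4 rose (log2 changes 0.99, 1.28 and 0.66). The lowest knockdown library of ID3 was above both controls. The inhibitory SMAD genes SMAD6 and SMAD7 rose (log2 changes 0.54 and 0.36), and LTBP1, which stores latent TGF-beta in the matrix, rose too (log2 change 1.01).

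The targets of the ID proteins, the E proteins, moved alongside. TCF3 rose from 65.3 and 65.5 CPM in control to between 133 and 148 in knockdown (log2 change 1.07) and TCF12 from 38.5 and 41.4 CPM in control to between 66.1 and 72.6 in knockdown (log2 change 0.78), both chosen after their values were seen. The symbol root TCF, which joins these to unrelated genes, had the highest median of 241 roots with at least 8 tested genes (4 of 8 rose and 0 fell, median log2 change 0.42), and its other rises were TCF7 (log2 change 0.87), a factor of the Wnt pathway, and TCF19 (log2 change 0.74).

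**Figure D4:**
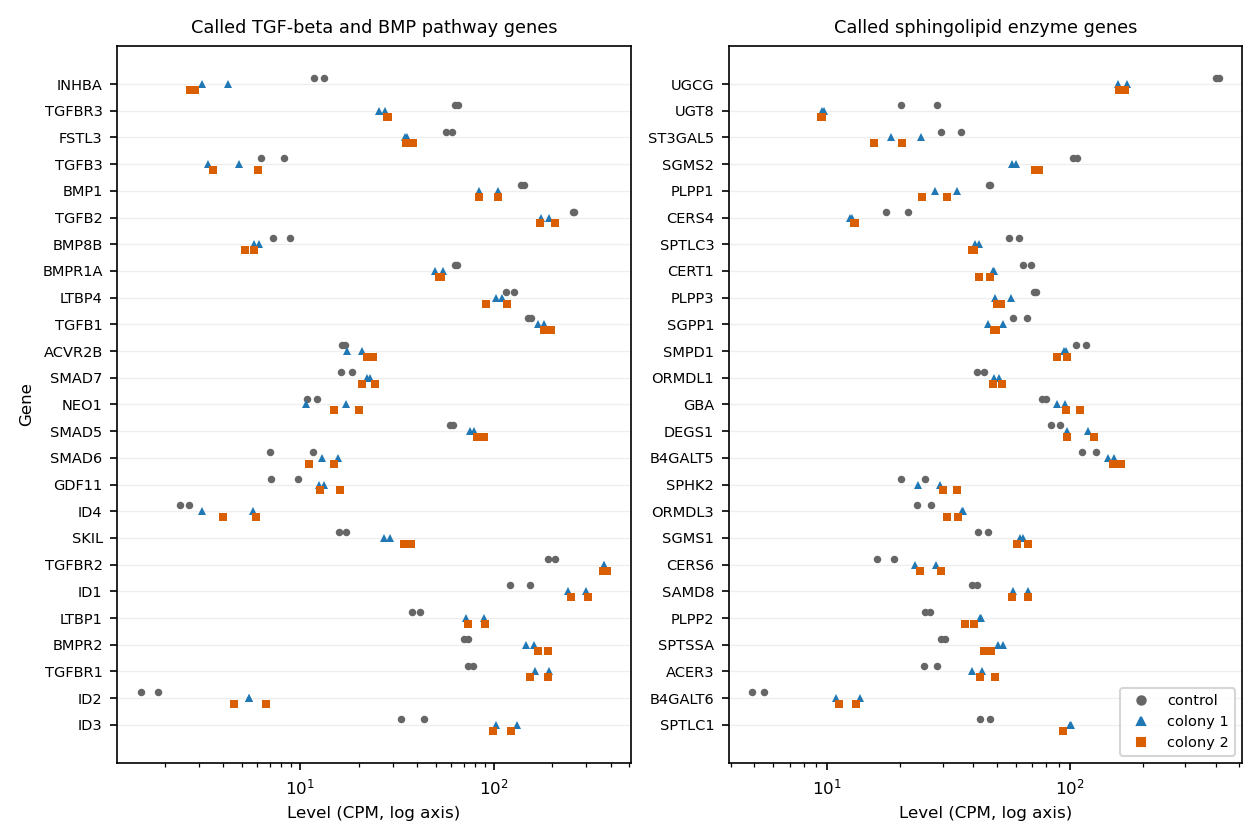
Level in CPM (log axis) of the 25 called genes of the TGF-beta and BMP list (left) and the 25 called sphingolipid genes (right) in each library, with control as circles, colony 1 as triangles and colony 2 as squares, ordered from the largest fall to the largest rise. On the left INHBA is at the top and ID3, with 33.0 and 43.6 CPM in control against 99.2 to 132 in knockdown, at the bottom. On the right UGCG is at the top and SPTLC1 at the bottom.

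Guidance and growth factor genes changed in both directions. Of the semaphorin, plexin, netrin, slit and ephrin genes, which steer moving cells, 9 rose and 12 fell of 38 tested, with a median log2 change of -0.08, and 11 falls were past -0.5. SEMA6C fell from 14.3 and 13.4 CPM in control to between 5.05 and 6.84 in knockdown (log2 change -1.11) and the basement membrane netrin NTN4 from 28.6 and 32.0 CPM in control to between 11.0 and 16.4 in knockdown (log2 change -1.09), which did not overlap control in any library. The receptor PLXNA2 was measured at 21.4 and 17.6 CPM in the control libraries, at 52.5 and 51.9 in those of colony 1 and at 55.3 and 45.2 in those of colony 2, and the secreted SLIT2 rose from 25.2 and 18.7 to between 35.7 and 39.6 CPM. For PLXNA2 every knockdown library was more than 2 times either control. Other semaphorins fell too, SEMA4F (log2 change -0.97), SEMA4G (log2 change -0.78) and SEMA7A (log2 change -0.70).

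Adhesion receptors coupled to G proteins, with long extracellular domains, were called in 12 of 15 cases (80%, against 44.7% of all genes). They had 7 rises and 5 falls, and 5 and 5 after median centring. The rises were led by ADGRV1 (2.45 and 1.60 against 5.62 to 7.35 CPM) and ADGRB2 (3.98 and 2.10 against 6.68 to 7.58 CPM). The falls were led by ADGRB1 (2.45 and 2.50 against 0.432 to 1.22 CPM) and ADGRF5 (409 and 426 against 209 to 233 CPM). G protein subunits and RGS proteins, which end G protein signals, had 13 rises and 6 falls of 35 (median 0.17). Among them GNB3 (2.25 and 2.10 against 5.23 to 6.97 CPM) and RGS17 (0.817 and 1.20 against 2.41 to 3.68 CPM) rose and GNG7 (log2 change -0.57) and RGS10 (log2 change -0.34) fell. The list of lipid, protease, peptide and other receptors, which also holds a few genes that are not receptors, had 9 and 11 of 49. The formyl peptide receptor FPR1 and the serotonin receptor HTR7 rose (log2 changes 0.96 and 0.90), the vasoactive peptide receptor VIPR1 fell from 69.8 and 56.2 CPM in control to between 12.6 and 18.1 in knockdown (log2 change -1.95) and the natriuretic peptide receptor NPR1, which is a guanylyl cyclase, fell (log2 change -1.16). For cAMP enzymes and the AKAP anchoring proteins there were 10 rises and 10 falls of 38. Among them the kinase subunit PRKACB (log2 change 0.73) and PDE3B (log2 change 0.67) rose and PDE1C (log2 change -0.82) and PRKAR1B (log2 change -0.52) fell. Genes of protein kinases C and D, diacylglycerol kinases and phospholipases C had 4 and 8 of 23. The polarity kinase PRKCZ fell from 40.9 and 41.2 CPM in control to between 19.6 and 22.02 in knockdown (log2 change -0.95), as did DGKA (log2 change -0.74), and PRKCA rose (log2 change 0.25).

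Wnt, Notch, growth factor and TNF genes were near an even balance. Wnt genes had 14 rises and 13 falls of 46, a balance that turned to 14 and 15 after median centring. The receptors FZD7 and FZD8 rose from 47.7 and 36.6 to between 87.1 and 97.6 CPM and from 6.84 and 6.21 to between 12.3 and 15.9 CPM, and FZD3 and the corepressor TLE1 fell (log2 changes -0.85 and -0.69). Notch genes had 7 and 7 of 32, which became 3 and 7 after centring, and were at 4 and 8 with colony 1 alone and 7 and 5 with colony 2 alone. Among them the glycosyltransferase LFNG rose from 16.7 and 14.2 to between 28.4 and 34.1 CPM, as did NOTCH1 (log2 change 0.42), and the ligand JAG2 and the secretase subunit APH1B fell (log2 changes -0.61 and -0.43). Growth factor genes had 10 and 9 of 34, 8 and 11 after centring. VEGFB (log2 change 0.74) and NRG1 (log2 change 0.68) rose and BDNF (log2 change -0.66) and ANGPTL4 (log2 change -0.62) fell. TNF ligands and receptors had 4 and 6 of 26. Among them NGFR (log2 change 0.79) and TNFRSF11A (log2 change 0.62) rose and the ligands TNFSF9 (22.4 and 17.6 against 8.38 to 10.3 CPM) and TNFSF4 (2.96 and 1.70 against 0.603 to 1.22 CPM) fell. MAP kinase cascade genes had 20 rises and 14 falls of 64, led by MAP3K5 (log2 change 0.85) and MAP3K14 (log2 change 0.80) and by MAPK15 (log2 change -1.27) and RRAS (log2 change -0.96).

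Sphingolipid genes, which build the ceramide core and its sugar heads, were called in 14 cases as rises and in 11 as falls of 42 (median 0.11), and 8 in each direction were past 0.5. SPTLC1, a subunit of serine palmitoyltransferase at the entry of the pathway, was measured at 42.8 and 47.1 CPM in the control libraries, at 100.4 and 101 in those of colony 1 and at 93.7 and 93.7 in those of colony 2, and its small subunit SPTSSA rose (log2 change 0.68), while the alternative subunit SPTLC3 fell (log2 change -0.52). UGCG, which puts glucose on ceramide, was measured at 402 and 412 CPM in the control libraries, at 173 and 158 in those of colony 1 and at 159 and 169 in those of colony 2, a log2 change of -1.30 (SE 0.06, adjusted p = 3.9e-15). UGT8, which puts galactose on ceramide, fell from 28.3 and 20.2 CPM in control to between 9.40 and 9.75 in knockdown (log2 change -1.24). For both, every knockdown library lay below both controls by a wide gap. The next enzyme after UGCG, the lactosylceramide synthase B4GALT6, rose from 4.90 and 5.50 to between 10.9 and 13.6 CPM, and CERT1, the ceramide carrier, fell (log2 change -0.51).

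Fatty acid and glycerolipid genes fell more often than they rose. For fatty acid oxidation and peroxisomes, 7 rose and 18 fell of 54 tested, with a median log2 change of -0.12. The trifunctional enzyme genes HADHA and HADHB fell (log2 changes -0.47 and -0.43), the electron transfer genes ETFA, ETFB and ETFDH (log2 changes -0.42, -0.70 and -0.60), and the peroxisome import receptor PEX19 from 80.3 and 80.2 CPM in control to between 48.3 and 52.2 in knockdown (log2 change -0.66). Against these the carnitine carrier SLC25A20 rose from 4.60 and 5.40 to between 7.98 and 9.62 CPM and HADH from 34.9 and 36.6 to between 49.8 and 57.8 CPM. For phospholipid and triglyceride genes, 10 rose and 22 fell of 64 tested, with a median log2 change of -0.10: the lipases PNPLA3 and MGLL fell from 13.8 and 14.0 to between 4.65 and 8.31 CPM and from 88.2 and 82.8 to between 40.8 and 51.7 CPM, and GPAT3 and the lipase LIPE (3.58 and 5.71 against 7.98 to 10.9 CPM) rose. In the citric acid cycle list 9 rose and 14 fell of 44 with none past 0.5 in size (11 and 10 with colony 1 alone, 6 and 16 with colony 2 alone), led by GOT1 (log2 change 0.48) and SUCLG2 (log2 change 0.47) upward and PDK3 (log2 change -0.46) and PDHB (log2 change -0.41) downward. Phosphoinositide kinases and phosphatases had 13 rises and 14 falls of 51. MTMR6 (log2 change 0.74) and PIKFYVE (log2 change 0.53) rose, and PIP5KL1 (9.40 and 7.51 against 1.96 to 4.14 CPM) and MTMR11 (log2 change -0.87) fell.

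Among genes of mucin-type sugars, sialic acid and fucose 13 rose and 22 fell of 63, 13 of the falls past -0.5. MUC4 was measured at 36.5 and 33.3 CPM in the control libraries, at 11.6 and 11.5 in those of colony 1 and at 11.9 and 15.2 in those of colony 2, and MUC1, another membrane mucin, fell from 32.0 and 21.1 CPM in control to between 9.09 and 13.8 in knockdown (log2 change -1.14). The sialidase NEU1 fell from 63.4 and 56.6 CPM in control to between 21.2 and 26.5 in knockdown (log2 change -1.28), the chain starter GALNT1 from 164 and 171 CPM in control to between 90.9 and 101 in knockdown (log2 change -0.80), and the nuclear sugar transferase OGT (log2 change -0.56). The named rises were B3GNT4 (21.9 and 19.4 against 38.2 to 49.1 CPM) and B3GNT5 (24.4 and 25.2 against 47.6 to 50.7 CPM). N-glycan genes had 12 rises and 16 falls of 63, with MPDU1 (log2 change 0.49) up and B4GALT4 (log2 change -0.64) down beside B4GALT1. GPI anchor genes had 5 and 4 of 24, 2 and 6 after centring. PIGX (log2 change 0.81) and PGAP3 (log2 change 0.38) rose, PIGZ (log2 change -0.94) and PGAP2 (log2 change -0.57) fell, and PGAP3 lost its call with the knockdown libraries as 1 group (adjusted p = 0.0523).

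Enzymes that oxidise and reduce small molecules fell more often than they rose. Of the aldehyde, aldo-keto and P450 genes, 14 rose and 23 fell of 71 tested, with a median log2 change of -0.13. CYP1A1, the classic target of the aryl hydrocarbon receptor, was measured at 9.81 and 13.1 CPM in the control libraries, at 0.101 and 1.21 in those of colony 1 and at 0.815 and 1.84 in those of colony 2. The mean level was 11.6-fold lower, and the log2 change was -2.71 (SE 0.26, adjusted p = 8.6e-09). Other genes linked to that receptor, chosen after their values were seen, did not move together. AHR itself (log2 change 0.13, adjusted p = 0.09) and its repressor AHRR (log2 change -0.18, adjusted p = 0.51) did not pass the test, nor did NQO1 (log2 change 0.08). Its partner ARNT fell from 78.4 and 69.0 CPM in control to between 41.9 and 45.1 in knockdown (log2 change -0.77) and TIPARP fell (log2 change -0.25). CYP1B1, another P450 target, rose from 228 and 211 CPM in control to between 342 and 405 in knockdown (log2 change 0.77). CES4A fell (log2 change -0.99), and CYP2U1 and the retinal reductase DHRS3 rose (log2 changes 0.83 and 0.78). The aldo-keto root AKR had the third lowest median of the 241 roots (1 of 8 rose and 5 fell, median log2 change -0.41). AKR1B1, AKR1C1, AKR1C2 and AKR1C3 fell (log2 changes -0.84, -0.44, -0.83 and -0.79), and the AKR1C genes are close copies whose reads may be shared. The root ALDH had the fifth lowest median (2 of 15 rose and 7 fell, median log2 change -0.32). The P450 root CYP had more rises (8 of 19 rose and 3 fell, median log2 change 0.11). Roots were taken by letters alone, and the largest rise of this one (log2 change 1.48) was that of a pseudogene. In the list, which leaves pseudogenes out, the largest rise was 0.83. The root therefore does not show whether the P450 genes shared the falls.

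The promoter of CYP1A1 is shown because that receptor binds elements with the core GCGTG, whose single match in the window (RefSeq, GRCh38.p14, chr15:74725479-74725778, minus strand) is in capitals. The core is short, and 47.9% of the 15435 windows held it on either strand.
CYP1A1 promoter: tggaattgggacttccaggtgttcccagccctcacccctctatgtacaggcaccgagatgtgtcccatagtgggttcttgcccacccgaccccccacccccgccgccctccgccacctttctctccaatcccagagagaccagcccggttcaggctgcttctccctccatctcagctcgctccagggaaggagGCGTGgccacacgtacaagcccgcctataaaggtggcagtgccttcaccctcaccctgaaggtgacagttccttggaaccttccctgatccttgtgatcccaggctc

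In the other metabolic lists the counts were close to even. Serine, glycine and folate genes had 14 rises and 9 falls of 40, 10 and 11 after centring. MTRR, which reactivates methionine synthase, rose from 25.9 and 29.8 CPM in control to between 54.4 and 62.7 in knockdown (log2 change 1.02), as did MTHFD2L (log2 change 0.55), and ALDH1L1 fell (log2 change -0.77). Genes of mitochondrial import and dynamics had 17 and 11 of 69, 13 and 15 after centring and likewise with colony 2 alone, against 15 and 7 with colony 1 alone. TOMM34 (log2 change 0.85) and TIMM10 (log2 change 0.77) rose, the fission factor MIEF2 fell from 49.6 and 44.8 CPM in control to between 20.2 and 25.04 in knockdown (log2 change -1.06), as did the cristae protein CHCHD3 (log2 change -0.82). Mitochondrial carriers had 11 and 8 of 38, 9 and 9 after centring. Among them SLC25A15 (log2 change 0.70) rose and SLC25A42 (18.9 and 15.8 against 6.87 to 9.29 CPM) and SLC25A12 (log2 change -0.78) fell.

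Channel genes were lower more often than higher. Ion channels other than potassium channels had 16 rises and 28 falls of 83. With colony 1 alone against control the counts were 9 and 29, and with colony 2 alone 15 and 17. The calcium channel subunits CACNA2D1 and CACNG7 rose from 11.95 and 14.6 to between 25.6 and 31.9 CPM and from 2.25 and 1.80 to between 4.64 and 5.96 CPM, and the chloride channel genes CLIC5 and CLIC3 fell from 3.58 and 5.30 to between 0.978 and 1.72 CPM and from 59.8 and 48.2 to between 27.2 and 35.4 CPM. Potassium channels had 2 and 5 of 21. Among them KCNQ5 (12.5 and 12.4 against 29.8 to 32.9 CPM) and KCNS3 (log2 change 0.68) rose and KCNE1 (log2 change -0.81) and KCNK6 (log2 change -0.75) fell. Zinc transporters and metallothioneins had 5 and 8 of 24 (median -0.20). MT1E, a metal-binding protein with close copies, fell from 116 and 120.0 to between 65.2 and 74.4 CPM, as did SLC30A6 (log2 change -0.63), and the importers SLC39A14 and SLC39A10 rose (log2 changes 0.46 and 0.43). Iron and haem genes had 9 and 11 of 34. FECH, the last enzyme of haem synthesis, rose from 10.9 and 13.1 CPM in control to between 23.3 and 29.6 in knockdown (log2 change 1.08), as did the exporter FLVCR1 (log2 change 0.74), while HMOX1, which breaks haem down, fell from 15.9 and 17.5 CPM in control to between 5.66 and 9.51 in knockdown (log2 change -1.01), as did FLVCR2 (log2 change -0.63). 

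Amino acid carriers had 6 rises and 9 falls of 30. The cystine importer SLC7A11 rose from 15.8 and 16.01 CPM in control to between 59.8 and 68.4 in knockdown (log2 change 1.93) and the neutral amino acid carrier SLC43A2 from 8.07 and 6.41 to between 13.5 and 22.6 CPM, and the glutamine carrier SLC38A2 and the orphan carrier SLC6A16 fell (log2 changes -0.85 and -0.92). Among the other solute carriers 24 rose and 29 fell of 117. The anion carrier SLCO4A1 and the chloride cotransporter SLC12A2 rose from 24.0 and 25.6 to between 54.5 and 59.4 CPM and from 16.2 and 16.8 to between 31.9 and 40.5 CPM, and the sugar carrier SLC2A12 and the anion exchanger SLC26A7 fell from 28.4 and 25.7 to between 9.08 and 12.1 CPM and from 2.86 and 4.004 to between 0.704 and 1.72 CPM. ABC transporters had 8 and 5 of 28. The sterol exporter ABCG1 (3.58 and 2.70 against 7.89 to 9.94 CPM) and ABCC4 (log2 change 0.96) rose, and ABCA5 (24.7 and 26.6 against 6.67 to 11.8 CPM) and the drug exporter ABCG2 (log2 change -0.48) fell.

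RNA-binding and RNA-decay genes rose more often than they fell. Of the RNA exosome and nonsense-mediated decay genes, which destroy faulty or processed RNA, 14 rose and 2 fell of 37 tested, with a median log2 change of 0.10, though 1 rise was past 0.5. MAGOHB, an exon junction protein, rose from 10.01 and 8.51 CPM in control to between 12.8 and 14.6 in knockdown (log2 change 0.54) and ZCCHC7, of the nuclear exosome adaptor, from 15.3 and 17.8 CPM in control to between 22.2 and 25.1 in knockdown (log2 change 0.48). The helicase UPF1 was measured at 184 and 189 CPM in the control libraries, at 230.3 and 242 in those of colony 1 and at 225 and 234 in those of colony 2, and the catalytic subunit DIS3 rose (log2 change 0.35). The falls were C1D, an exosome cofactor (17.4 and 20.3 against 9.39 to 12.8 CPM), and TTC37, of the cytoplasmic SKI complex (log2 change -0.23). With median centring 12 rose and 4 fell.

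Among hnRNP, ELAV and related proteins 27 rose and 13 fell of 64 (median 0.13), and 18 and 14 after centring. ELAVL1, which stabilises mRNAs with AU-rich elements, rose from 82.7 and 98.6 CPM in control to between 125 and 135 in knockdown (log2 change 0.54). HNRNPA0 and HNRNPD rose (log2 changes 0.66 and 0.51), as did LARP1, which binds ribosomal protein mRNAs (log2 change 0.46). The larger rises were those of MBNL3 and KHDRBS3, which regulate splicing (log2 changes 1.00 and 0.67). CELF2 fell from 37.9 and 33.6 CPM in control to between 10.9 and 13.2 in knockdown (log2 change -1.49), CPEB4, a regulator of polyadenylation, from 98.8 and 83.1 CPM in control to between 48.7 and 58.6 in knockdown (log2 change -0.75), and TARDBP, encoding TDP-43, from 186 and 194 CPM in control to between 108 and 126 in knockdown (log2 change -0.69). The median control level of the list was 131 CPM, in the range where 60.7% of genes were called.

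Other RNA lists had more rises than falls with smaller margins, which centring removed for deadenylation (16 and 16) and turned for mRNA modification. Deadenylation and decapping genes had 18 rises, led by LSM4 (log2 change 0.71) and DCPS (log2 change 0.67), and 12 falls, led by NANOS1 (39.1 and 38.8 against 14.4 to 19.7 CPM) and BTG2 (log2 change -0.73), of 55. Cleavage, polyadenylation and Integrator genes had 13 and 5 of 43. NUDT21, the CFIm25 subunit that sets the choice of polyadenylation site, rose from 50.9 and 60.4 CPM in control to between 91.4 and 102 in knockdown (log2 change 0.79) and the poly(A) polymerase PAPOLA from 127 and 149 CPM in control to between 214 and 246 in knockdown (log2 change 0.75), while INTS3 and NELFA fell (log2 changes -0.43 and -0.41). Enzymes that modify tRNA had 15 and 9 of 60, where TRMT6 rose from 15.3 and 17.4 to between 30.9 and 38.99 CPM and WDR4 from 7.15 and 9.61 to between 13.9 and 22.8 CPM, and DUS2 and ALKBH8 fell (log2 changes -0.53 and -0.49). mRNA modification genes had 11 and 6 of 32, 7 and 9 after centring. PUS1 (log2 change 0.66) and the reader YTHDF3 (log2 change 0.59) rose, and CMTR1 (log2 change -0.48) and the demethylase FTO (log2 change -0.40) fell.

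Of the SUMO genes, which attach and remove the small modifier SUMO, 9 rose and 1 fell of 22 tested, with a median log2 change of 0.14. SUMO3, a modifier itself, was measured at 87.5 and 101 CPM in the control libraries, at 238 and 250 in those of colony 1 and at 212 and 221 in those of colony 2, a log2 change of 1.28 (SE 0.07, adjusted p = 2.4e-14). The protease SENP1 was measured at 13.3 and 13.6 CPM in the control libraries, at 24.3 and 27.9 in those of colony 1 and at 29.6 and 33.1 in those of colony 2, and UBA2, of the activating enzyme, rose from 58.2 and 61.1 CPM in control to between 93.9 and 113 in knockdown (log2 change 0.77). In all 3 the lowest knockdown library was above the highest control. The ligase PIAS3 was the fall, from 79.2 and 80.5 to between 51.1 and 59.7 CPM. With median centring 5 rose and 3 fell.

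**Figure D5:**
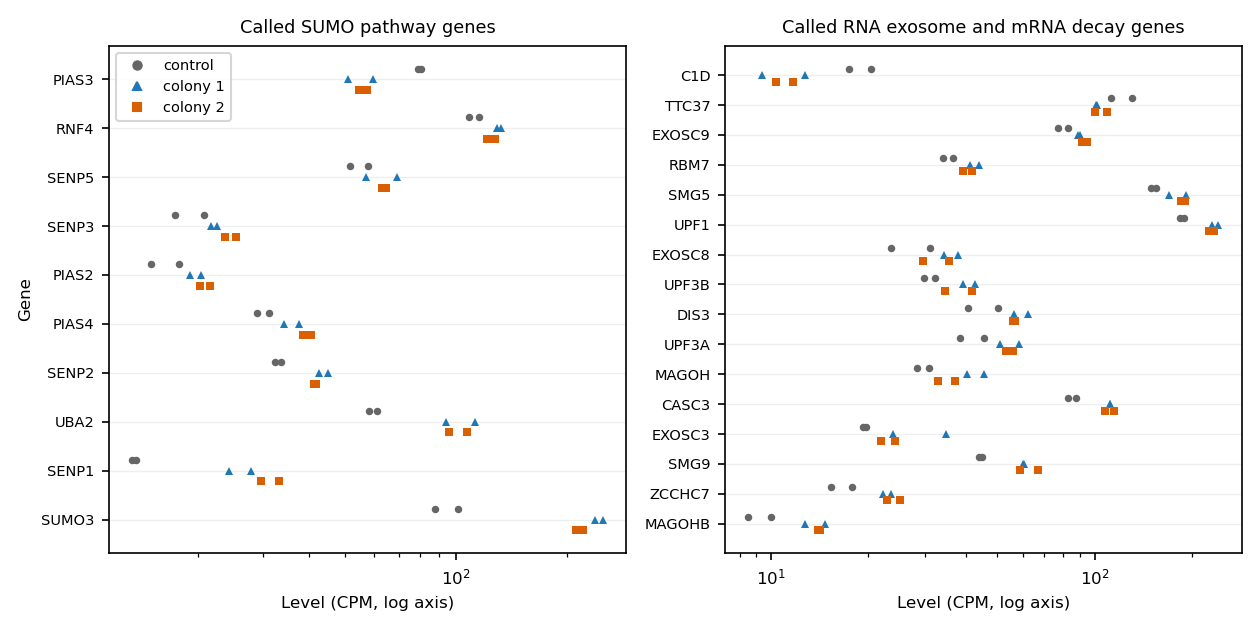
Level in CPM (log axis) of the 10 called SUMO genes (left) and the 16 called RNA exosome and decay genes (right) in each library, with control as circles, colony 1 as triangles and colony 2 as squares. SUMO3 and SENP1 at the bottom left have the widest gaps to control, and on the right only C1D and TTC37, at the top, lie to the left of control. Among the rises 1 library of SENP5 and 1 of EXOSC8 lie among the controls.

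Ubiquitin genes were near the background. Conjugating enzymes had 9 rises and 9 falls of 39. Among them UBE2S (log2 change 1.09) and UBE2C (log2 change 1.07), which serve the anaphase-promoting complex, rose and UBE2W (log2 change -1.07) and the ISG15 enzyme UBE2L6 (log2 change -0.97) fell. Deubiquitinases had 18 and 12 of 74. Among them STAMBPL1 (29.1 and 28.9 against 58.0 to 78.4 CPM) and USP12 (36.1 and 36.8 against 76.5 to 86.1 CPM) rose and the mitochondrial USP30 (log2 change -0.75) and OTUD5 (log2 change -0.70) fell. Cullin, F-box and KLHL genes had 34 and 32 of 138, 24 and 39 after centring. SOCS1, which brakes cytokine signals, rose from 4.49 and 2.60 CPM in control to between 8.54 and 11.5 in knockdown (log2 change 1.36) and SKP2, which marks CDK inhibitors for destruction, from 14.2 and 15.7 CPM in control to between 31.5 and 33.3 in knockdown (log2 change 1.06), and FBXO2 and FBXO21 fell (log2 changes -1.15 and -0.99). TRIM proteins had 12 and 10 of 46 (11 and 11 after centring), with TRIM8 (168 and 166 against 382 to 399 CPM) and TRIM44 (log2 change 0.87) up.

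Among transcription factors the ETS family was called most: 10 rose and 4 fell of 19 tested (73.7% called, against 44.7% over all genes). The median log2 change was 0.27, and 9 rose and 5 fell after centring. Their median control level was 55.0 CPM, and genes at 30 to 100 CPM were called in 53.3% of cases. Most rises were modest, ETV5 from 33.1 and 37.0 to between 50.7 and 57.7 CPM and EHF from 63.1 and 67.7 to between 89.1 and 106 CPM, and the falls were ELF3, ELK3 (113 and 122 against 74.5 to 78.3 CPM), ELF2 and ELF1. SOX, FOX and KLF factors had 12 rises and 10 falls of 48, 11 and 11 after centring. Among them FOXO6 (6.13 and 6.41 against 14.3 to 16.1 CPM) and the mitotic FOXM1 (74.2 and 82.8 against 161 to 181 CPM) rose and SP6 and KLF8 (4.60 and 3.20 against 1.30 to 1.52 CPM) fell. AP-1, CREB and immediate early factors had 9 and 5 of 32, 8 and 9 after centring. FOSL1, an AP-1 subunit abundant in mesenchymal breast cancer lines, was measured at 119 and 137 CPM in the control libraries, at 269.6 and 311 in those of colony 1 and at 279.7 and 331 in those of colony 2, while JUND and ATF7 fell (log2 changes -0.54 and -0.60) and CEBPG rose (log2 change 0.86). Homeobox genes had 11 and 9 of 64, 11 and 12 after centring. LHX6 rose from 2.96 and 2.30 to between 7.58 and 10.2 CPM, and EMX1 and PAX8 fell (log2 changes -0.93 and -0.82). Nuclear receptors and coregulators had 9 and 12 of 41, where the thyroid hormone receptor THRB fell from 8.07 and 6.61 CPM in control to between 2.01 and 2.70 in knockdown (log2 change -1.31) and the coregulators PPARGC1B and NRIP2 rose (log2 changes 0.88 and 0.80).

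ZNF genes, most of which encode KRAB zinc finger repressors, had few calls: 65 rose and 52 fell of 433, or 27.0% called, and 51 and 62 after centring. Colony 1 alone gave 38 rises and 54 falls, and colony 2 alone gave 67 and 38. Their median control level was 12.3 CPM, and genes at 10 to 30 CPM were called in 43.4% of cases. ZNF644 rose from 27.6 and 25.6 CPM in control to between 56.9 and 66.0 in knockdown (log2 change 1.15), as did ZNF333 (log2 change 0.93), and ZNF345 and ZNF615 fell (log2 changes -1.06 and -0.80).

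Chromatin genes changed modestly. Acetyltransferases, deacetylases and bromodomain genes had 19 rises and 9 falls of 56. Among them the class IIa deacetylase HDAC4 (26.8 and 26.1 against 50.3 to 51.5 CPM) and JADE2 (log2 change 0.76) rose and the acetyltransferase KAT2B (72.6 and 76.1 against 32.7 to 41.7 CPM) and the sirtuin SIRT3 (log2 change -0.50) fell. Mediator genes had 12 and 6 of 33. Among them MED12L (log2 change 0.95) and MED27 (log2 change 0.83) rose and MED11 (log2 change -0.80) and MED20 (log2 change -0.65) fell. Histone methylation enzymes had 12 and 10 of 66, 10 and 12 after centring, where KMT5A and NSD2 rose (log2 changes 0.82 and 0.72) and the demethylases KDM7A and KDM6B fell (log2 changes -1 and -0.39). Chromatin remodellers had 17 and 14 of 69, 13 and 16 after centring. The acetyl-lysine reader YEATS4 rose from 9.19 and 10.1 CPM in control to between 23.4 and 27.1 in knockdown (log2 change 1.28), as did SS18 (log2 change 0.74), and CHD8 and INO80C fell (log2 changes -0.73 and -0.63). In the DNA methylation list 3 rose and 3 fell of 13. The maintenance enzyme DNMT1 rose from 191 and 214 CPM in control to between 308 and 346 in knockdown (log2 change 0.67), as did TDG (log2 change 0.34), ZBTB38 fell (log2 change -0.45), and the fall of MBD4 (log2 change -0.26) lost its call with the knockdown libraries as 1 group (adjusted p = 0.0636).

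Genes of cilium transport and the BBSome, the coat that moves membrane proteins along cilia, were lower more often than higher. Of 60 tested, 6 rose (10%, against 23.2% of all genes) and 15 fell (25%, against 21.5%), with a median log2 change of -0.04. The share of falls was thus close to that over all genes. By symbol root, BBS had 0 rises and 4 falls of 8 (median log2 change -0.34). The root IFT, of intraflagellar transport, had 2 rises and 0 falls of 14 (median log2 change -0.01). TCTN2, of the ciliary gate, fell from 29.2 and 22.3 CPM in control to between 10.3 and 14.3 in knockdown (log2 change -1.02), BBS5 from 9.30 and 9.01 to between 4.07 and 5.63 CPM and the kinesin 2 subunit KIFAP3 from 36.7 and 44.5 to between 20 and 25.9 CPM. TTC26, of the intraflagellar transport machinery, rose against them from 7.56 and 7.91 to between 13.8 and 16.2 CPM. Whether the cells carry cilia was not measured. Clock genes had 8 rises and 4 falls of 23. ARNTL2, a paralog of BMAL1, rose from 19.0 and 18.6 CPM in control to between 43.2 and 58.6 in knockdown (log2 change 1.33) and PER3 from 32.6 and 28.4 CPM in control to between 66.5 and 77.1 in knockdown (log2 change 1.23), and CRY2 fell (log2 change -0.57).

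Protease inhibitors had 4 rises and 8 falls of 25 (median -0.22). The inhibitor SERPINE2 rose (log2 change 0.35), and SERPINB7 and SERPINI1 fell from 3.88 and 4.30 to between 0.503 and 1.41 CPM and from 2.04 and 3.20 to between 0.402 and 1.87 CPM. Complement and coagulation genes had 9 and 8 of 33, 8 and 11 after centring. C5 rose from 4.29 and 5.205 to between 10.8 and 14.48 CPM, the complement shield CD59 fell from 573 and 582 CPM in control to between 278 and 314 in knockdown (log2 change -0.95) and the protein C receptor PROCR (log2 change -0.77). In the antigen presentation list 5 rose and 10 fell of 38. The rises named were class II genes, HLA-DRA (13.3 and 9.61 against 17.1 to 24.4 CPM) and HLA-DMB (1.23 and 2.00 against 2.71 to 4.85 CPM), and the falls the NKG2D ligand MICB (34.3 and 32.4 against 13.9 to 16.6 CPM) and the galectin LGALS9 (log2 change -0.74).

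Phosphatase and calcium genes completed the lists. Tyrosine phosphatases had 10 rises and 9 falls of 37, 8 and 10 after centring, with PTPN1 (138 and 143 against 259.8 to 289 CPM) and PTPN14 (221 and 206 against 329.7 to 441 CPM) up and PTPRB (10.01 and 10.2 against 2.83 to 3.24 CPM) down beside PTPRF. Serine and threonine phosphatase genes had 20 and 19 of 75, 18 and 20 after centring. The histone chaperones and phosphatase inhibitors ANP32B and ANP32E rose (log2 changes 1.19 and 0.66), and PPP1R1C and PPM1H fell (log2 changes -1.22 and -0.97). For PPM1H the colonies stood apart, with controls at 5.31 and 5.91 CPM, colony 1 at 1.41 and 1.21 and colony 2 at 4.56 and 3.35. Calcium and calmodulin kinases and their partners had 4 and 10 of 26. Among them CAMK4 (log2 change 0.67) and NFATC3 (log2 change 0.39) rose and the osmotic stress factor NFAT5 (205 and 195 against 100.3 to 132 CPM) and RCAN1 (log2 change -0.67) fell. Cancer-testis genes had 1 rise, TEX30 (log2 change 0.56), and 1 fall, TEX9 (log2 change -0.63), of 10.

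On group means, no gene went from under 1 CPM in control to 3 CPM or more in knockdown, and 9 went the other way. Besides CYP1A1, SERPINB7 and the TRIM protein TRIM54 (3.27 and 3.40 against 0.244 to 0.707 CPM), these included IL6R, the interleukin 6 receptor, at 3.47 and 3.50 CPM in the control libraries, at 0.503 and 0.303 in those of colony 1 and at 0.733 and 0.324 in those of colony 2. Both control libraries of IL6R lay far above the highest knockdown library. The signalling partner IL6ST, chosen after its values were seen, rose (log2 change 0.20), and IL6 itself did not pass the test (log2 change -0.41). Others were the collagen chain COL4A4 (3.06 and 3.70 against 0.101 to 1.06 CPM), the noncoding RNA LINC00319 (6.13 and 4.004 against 0.707 to 1.19 CPM), the antisense RNA DLGAP1-AS2 (3.06 and 3.20 against 0.505 to 1.31 CPM) and the pseudogene PDCL3P4 (2.45 and 4.80 against 0.489 to 1.21 CPM).

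A scan by symbol root over 241 roots gave keratins the lowest median (2 of 15 rose and 10 fell, median log2 change -0.65), followed by the integrin root ITGB (0 of 12 rose and 4 fell, median log2 change -0.43) and the roots AKR, BBS (0 of 8 rose and 4 fell, median log2 change -0.34) and ALDH. ITGB4 and ITGB5 fell (log2 changes -0.61 and -0.31), and ITGB1, the common beta subunit, did not pass (log2 change 0.00). The root also holds binding partners and noncoding neighbours of integrins, as KRT holds pseudogenes. Every root was taken by its letters alone, so those named next can also hold antisense RNAs and other genes. Next below TCF at the upper end stood THAP, zinc finger factors related to transposases (6 of 14 rose and 1 fell, median log2 change 0.31), MCM, replication genes (9 of 11 rose and 0 fell, median log2 change 0.29), KAT, acetyltransferases (5 of 8 rose and 2 fell, median log2 change 0.28), and GNG, G protein gamma subunits (2 of 8 rose and 2 fell, median log2 change 0.27).

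Over the autosomes and X, medians ran from -0.07 for X, where 85 genes rose and 110 fell of 444, to 0.10 for chromosome 13, where 68 rose and 32 fell of 232. Every other autosome had a median between -0.03 and 0.05. By type of gene, 46.7% of 12354 protein-coding genes were called, against 28.5% of antisense and 24.2% of long intergenic RNAs, whose levels are lower.

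Of the 370 genes the naming rule took, 201 have an annotated gene on the opposite strand, among them GSKIP in ATG2B, RAB23 beside BAG2, STX1A beside BUD23 and SOCS1 beside RMI2. Without a stated strand setting, reads of such partners cannot be told apart.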

How the data were processed

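Poly(A) RNA of 6 MDA-MB-231 libraries was sequenced. The authors deposited 1 table of CPM (read counts scaled to library size) per gene symbol; reads were handled with Trim Galore and HISAT2 against hg38, with mm10 also listed, per the submitters' processing notes. The sources used here do not give the counting program, annotation, strand setting or scaling. Of 52142 rows, 15200 had no symbol (2.50% to 2.62% of the CPM of a library) and 10 shared a symbol; 36932 were kept.

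Log2(CPM + 1) of the 13675 genes whose mean reached 1 CPM was fitted with limma 3.58.1 in R 4.3.3 (3 group means, trend, robust empirical Bayes), and the mean of both colonies was set against control. This error leaves out the spread between colonies. P-values were adjusted by Benjamini-Hochberg over all genes. On simulated data 80.6% of genes changed 1.5-fold, 92.5% of those changed 2-fold and 98.5% of those changed 4-fold were called, and 5.24% of calls were false. There only 200 of the 13675 genes were changed, alike in both colonies, with noise drawn independently for each library. The false share therefore does not carry over to the 6115 calls in the data. Same-numbered libraries deviated together (correlations of 0.119, 0.128 and 0.159), so a replicate block was an alternative, although the labels do not say what a number marks.

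Genes were named by rank 11 to 25 of the changes at 20 CPM or more, the largest CPM changes, near-complete losses, and up to 2 per direction in each list. Members and lists were chosen with earlier results of these data known. Coordinates are those of GENCODE 29 (GRCh38), which matched 13659 genes. Some genes the rule takes are not reported here.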

Additional observations from a re-analysis of the deposited data

Results flagged for a closer look

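For 9 of the genes named above the change differed between the colonies by limma's test of colony 2 against colony 1 (adjusted p under 0.05), with both colonies set against the same 2 controls. The phosphatase gene PPM1H differed most, by a log2 difference of 1.09 (colony 2 minus colony 1). Its log2 change was -1.52 in colony 1 and -0.42 in colony 2, and the latter did not pass the test against control (adjusted p = 0.15). PTPN14, a tyrosine phosphatase gene, was higher in colony 2 by a log2 difference of 0.38, and the noncoding RNA NEAT1 by 0.36. The other genes were lower in colony 2, with log2 differences of -0.45 for the tetraspanin gene CD81, -0.41 for the small GTPase gene RRAS and -0.34 for PDHB, of pyruvate dehydrogenase. Smaller log2 differences were those of ANXA2 (-0.23), ENO1 (-0.22) and EEF1A1 (-0.20). Over all genes tested, 2.28% passed this test.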

How the results depend on the processing

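The counts of 3171 higher and 2944 lower genes, and of 1374 and 1298 past an absolute log2 change of 0.5, stayed within 1.5 times under every alternative run except one. With genes at a mean of at least 10 CPM, 10067 were tested and 811 fell past 0.5 while 1060 rose; this filter removes genes by its construction. Leaving out each library in turn gave 2518 to 3068 higher and 2233 to 2891 lower genes, and past 0.5 1312 to 1431 and 1124 to 1405. Median centring gave 2675 and 3511 (past 0.5, 1141 and 1551), and 16 of 79 lists then changed which direction had more calls and 5 became even. In 12 lists rises outnumbered falls in one colony alone and falls outnumbered rises in the other. Of the 370 genes the naming rule took, 282 were tested in every alternative, and 265 of these kept their direction and call in each; the other 88 were left out by the filter at 10 CPM. No named gene reversed where it was tested. With the knockdown libraries as 1 group, which adds the spread between colonies to the error, 2836 rose and 2583 fell, and EEF1A1, MBD4, PGAP3, RHOG and S100A1 lost their call. A replicate block gave 3642 and 3428 (past 0.5, 1399 and 1339) and changed the call of no named gene. Each colony alone gave 2813 and 2806 without colony 1, and 2802 and 2530 without colony 2. The planned count models (edgeR and DESeq2) were not run, because reads could not be taken as recovered from the CPM: the value step of a library lay close to a round decimal. With 2 libraries per group, precision is limited by the number of libraries, and low genes by depth.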
